A study of Mus musculus with 167 samples.

Results

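Phenobarbital-treated livers of mice that carry human CAR and human PXR were compared with treated livers of wild-type mice, as expression levels reached under the drug. All arrays labelled phenobarbital from these genotypes on days 1, 7, 14, 28 and 91 of dosing were taken, which gave 47 of the 167 arrays of the series. There were 23 humanized arrays (genotype human CAR/PXR, with 5, 4, 5, 5 and 4 animals on these days). The 24 wild-type arrays came from 5, 4, 5, 5 and 5 animals, and each array from a separate male C57BL/6 mouse. The labels give the same age of 9 to 11 weeks for animals of all days. It cannot be the age at sampling on every day, and mice of later days were older, so age rose with day. The drug was given in drinking water at 0.05% (wt/vol), and whole-liver RNA was measured on Affymetrix arrays. Control livers of the same genotypes and days (24 humanized and 22 wild type) and 24 treated livers of mice without either receptor (CARKO-PXRKO) are given beside the treated levels. Values are log2 levels after robust multi-array averaging (RMA), so a difference of 1 is a 2-fold difference, and every difference is humanized minus wild type. The labels name no promoter or construct for the human receptors, and the humanized mice are a line of their own, so receptor species and any other difference between the lines cannot be told apart.

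CAR (gene Nr1i3) and PXR (gene Nr1i2) are nuclear receptors of the hepatocyte that pair with RXR and switch on genes for drug oxidation, conjugation and transport. Phenobarbital activates CAR indirectly, by blocking signalling through the EGF receptor so that CAR moves into the nucleus, while PXR is opened by direct binding of many drugs and steroids. The human and mouse forms differ most in the pocket that binds ligands, and Cyp2b10 in the mouse is the classical readout of CAR, Cyp3a11 that of PXR.

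The mouse receptor transcripts followed the labels. Nr1i2 had lowest, median and highest levels of 3.34, 3.64 and 3.96 in treated humanized livers, against 7.10, 7.56 and 8.02 in treated wild-type livers, and 3.45 to 4.01 in treated knockout livers. Nr1i3 had 4.80, 5.08 and 5.30 in humanized livers, against 7.74, 8.17 and 8.87 in wild-type livers, and 4.71 to 5.38 in knockout livers. No humanized array overlapped a wild-type array for either gene, and human receptor transcripts were not measured here. Of the 10 nearest annotated genes on each side of Nr1i3, 10 were tested and 3 were higher in humanized livers: Tomm40l by 0.81, Pcp4l1 by 0.72 and Apoa2 by 0.04. Tomm40l codes for a mitochondrial import protein, and its second, dimmer probe set went the other way, at -1.78. Of the neighbours of Nr1i2, 5 were tested and Cox17, a copper chaperone of cytochrome oxidase, was higher by 0.15, against -0.041 on its probe set of highest variance.

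The tissue matched its label. The mean over 9 hepatocyte marker genes lay between 13.8 and 14.0 on all humanized arrays, against 13.8 to 14.0 on all wild-type arrays. Pancreas acinar markers stood high on 5 treated arrays, with means of 12.3 on humanized animal 6003 (day 1), against 9.16, 8.10, 7.96 and 9.06 on wild-type animals 2004 (day 1), 2009 (day 7), 2015 (day 14) and 2025 (day 91). Their medians were 5.28 in humanized and 5.54 in wild-type livers, and of the 11 markers tested, 0 were higher and 2 lower in humanized livers. Without these 5 arrays 3109 genes differed between the genotypes, against 3159 with them. In control livers the list was further apart: 0 of the 11 markers were higher and 10 lower in humanized livers (median -1.04). Array means lay between 5.07 and 6.68 in humanized controls, against 5.17 to 10.1 in wild-type controls, 6 of which passed the threshold that marked those 5, over 2 log2 units above the median of treated arrays. Array medians ranged from 5.15 to 5.23 over the 47 arrays, and no pair among them was near-identical. Among the treated knockout arrays, those of animals 4019 (day 28) and 4024 (day 91) were near-identical. The SD of their difference over bright genes was 0.056, against at least 0.122 for pairs of the 47. Both are in the knockout ranges and means given here.

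Between treated humanized and treated wild-type livers, 3159 of 12622 genes (25%) differed at an adjusted p under 0.05 (limma with day as a block, Benjamini-Hochberg over all genes tested). They divided into 1591 higher (12.6%) and 1568 lower (12.4%) in humanized livers, and most differences were small: the median absolute difference over all genes was 0.0565. These shares of all genes are the background for the counts of called list genes over all days given below. A difference of at least 1.5-fold was seen in 103 called genes (0.816%), 63 higher (0.499%) and 40 lower (0.317%). Beyond the receptors, the largest higher levels belonged to Cyp4a14, Prom1, Abcc4, Serpinb1a and Sult2a2, and the largest lower levels to Moxd1, 1700067K01Rik, Tmem223, Cyp2b9 and Gna14, among genes with 1 sign on all 5 days. Over all arrays the genotypes did not overlap for 11 genes (0.0871%), 2 with humanized livers above (0.0158%) and 9 with humanized livers below (0.0713%). Within each of the 5 days they did not overlap for 18 genes with humanized above (0.143%), among them Abcc4, Serpinb1a, Cbr3, Gsta2, Cyp3a25 and Cyp3a11, and for 20 with humanized below (0.158%), among them Cyp2c54, Cyp2a12 and Gulo.

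All 3 Cyp2b genes tested were lower in humanized livers, with a median difference of -1.29 against 0.0049 over all genes, while in controls 1 was higher and 0 were lower. Cyp2b10, the main phenobarbital-induced P450 of mouse liver, was lower by 0.35 ± 0.06 (SE, adjusted p = 1.26e-05, limma). On day 1 its levels were 12.11, 11.73, 11.81, 12.36 and 12.66 in humanized livers, against 13.08, 12.73, 13.00, 12.89 and 13.01 in wild-type livers, with every humanized animal below every wild-type animal. By day 91 they were 12.64, 12.60, 12.44 and 12.84 in humanized livers, against 12.53, 12.89, 12.65, 12.79 and 12.88 in wild-type livers, and the groups overlapped. The differences on days 1, 7, 14, 28 and 91 were -0.81, -0.35, -0.33, -0.13 and -0.12, and the change between day 1 and day 91 was 0.69 (adjusted p = 0.0216). Treated knockout livers lay far below both, between 5.17 and 6.36. Both other Cyp2b10 probe sets gave lower levels too, at -0.23 and -0.29, and all may take signal from near-identical family members.

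Cyp2c55, a P450 that converts arachidonic acid, showed the same order, with a difference of -0.32 ± 0.0737 (adjusted p = 0.000783). On day 1 it averaged 12.16 ± 0.32 in humanized livers (SD, n = 5) and 12.93 ± 0.07 in wild-type livers (SD, n = 5), without overlap. On day 91 it averaged 12.24 ± 0.34 in humanized livers (SD, n = 4) and 12.22 ± 0.38 in wild-type livers (SD, n = 5). Between these days the wild-type mean fell, while the humanized mean changed little. The change of 0.79 in the difference had an adjusted p of 0.0459. It missed the threshold after quantile normalization (adjusted p = 0.0616), with no filter on dim genes (adjusted p = 0.0571) and in 20 of the 47 fits that left out 1 animal; that of Cyp2b10 missed it in 4, with adjusted p up to 0.0551. In control livers both genes had the opposite order: Cyp2b10 averaged 7.94 in humanized and 6.48 in wild-type controls, and Cyp2c55 averaged 9.56 in humanized and 8.33 in wild-type controls. The treated minus untreated difference was -1.79 ± 0.11 for Cyp2b10 (adjusted p = 2.79e-22) and -1.55 ± 0.11 for Cyp2c55 (adjusted p = 3.19e-19). RMA levels compress near the top of the scale, whose highest value here was 15.07, so fold differences of such bright probe sets may be understated.

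**Figure D1:**
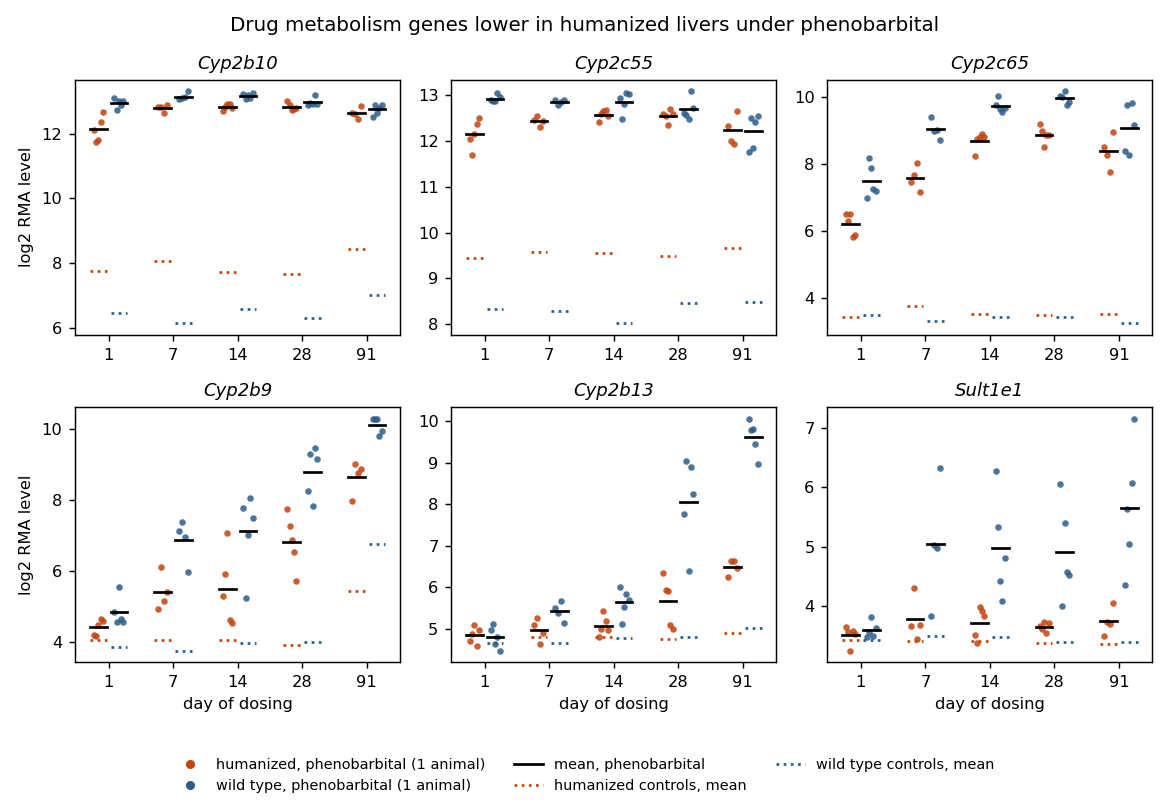
Log2 RMA level (y axis) against day of dosing (x axis) for 6 drug metabolism genes; each point is 1 treated animal, humanized left of wild type, black bars are treated means and dotted bars are control means. Cyp2b10 and Cyp2c55 are lower in humanized livers on day 1, and the genotypes overlap on day 91. For Cyp2c55 the wild-type mean is lower on day 91 than on day 1, while the humanized mean is nearly the same. Cyp2b9 and Cyp2b13 end at 8.66 and 6.50 in humanized livers, below 10.12 and 9.62 in wild-type livers.

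Cyp2b9 and Cyp2b13, which are close relatives of Cyp2b10 and mainly expressed in female mouse liver, had larger gaps on later days. The 250 bases before their annotated starts are shown because both genes lie in the same cluster as Cyp2b10 and the upstream stretches are nearly the same. All are on the plus strand of chromosome 7 (RefSeq, build GRCm38.p6), at chr7:26173159-26173408 for Cyp2b9, chr7:26061245-26061494 for Cyp2b13 and chr7:25897408-25897657 for Cyp2b10. Capitals mark AGGTCA, the half-site that nuclear receptors of this class bind, searched on both strands.
Cyp2b9: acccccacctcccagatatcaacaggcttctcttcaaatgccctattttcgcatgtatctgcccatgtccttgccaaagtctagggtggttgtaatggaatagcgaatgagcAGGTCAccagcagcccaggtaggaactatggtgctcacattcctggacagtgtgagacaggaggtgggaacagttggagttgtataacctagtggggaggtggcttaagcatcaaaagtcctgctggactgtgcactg
Cyp2b13: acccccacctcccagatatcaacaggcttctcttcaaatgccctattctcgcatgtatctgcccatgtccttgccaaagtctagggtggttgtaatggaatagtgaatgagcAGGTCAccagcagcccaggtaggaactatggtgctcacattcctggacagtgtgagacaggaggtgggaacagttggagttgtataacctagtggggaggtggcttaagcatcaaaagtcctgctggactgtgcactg
Cyp2b10: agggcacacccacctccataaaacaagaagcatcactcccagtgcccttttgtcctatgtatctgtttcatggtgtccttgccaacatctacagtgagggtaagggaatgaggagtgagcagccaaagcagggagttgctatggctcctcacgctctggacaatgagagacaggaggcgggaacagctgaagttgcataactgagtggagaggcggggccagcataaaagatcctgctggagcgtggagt
Cyp2b9 and Cyp2b13 were identical at 248 of 250 positions (T48C and C104T, Cyp2b9 base first, counted from the 5′ end), and each matched Cyp2b10 at 182 of 260 aligned columns. The motif was found once in Cyp2b9 and once in Cyp2b13, at position 113, and its letters were not in the Cyp2b10 window. Of 27025 promoters of the same length, 3740 (13.8%) held it, so a match describes the letters only.

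Cyp2b9 ranged over 4.18, 5.71 and 9.01 (lowest, median, highest) in humanized livers, against 4.57, 7.64 and 10.29 in wild-type livers, and was lower by 1.38 ± 0.199 (adjusted p = 5.99e-07). Means were higher on later days in both genotypes, at 4.42 ± 0.22 (SD, n = 5) on day 1 and 8.66 ± 0.47 (SD, n = 4) on day 91 in humanized livers, against 4.84 ± 0.42 and 10.12 ± 0.23 (SD, n = 5 each) in wild-type livers. Its difference did not pass the test for a change between day 1 and day 91 (-1.04, adjusted p = 0.326). Cyp2b13 did: the difference was 0.05 on day 1, -0.45, -0.56 and -2.41 on days 7, 14 and 28, and -3.12 on day 91 (change -3.17, adjusted p = 1.31e-05). On day 91 Cyp2b13 stood at 6.24, 6.64, 6.64 and 6.46 in humanized livers, against 10.06, 9.79, 9.82, 9.44 and 8.96 in wild-type livers, with a wide gap between the groups. In controls neither gene was called, at -0.17 (adjusted p = 0.47) for Cyp2b9 and 0.04 (adjusted p = 0.60) for Cyp2b13.

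Of 10 Cyp2c genes tested, 1 was higher and 6 were lower in humanized livers, beside 12.6% and 12.4% of all genes. Their median difference was -0.20. Cyp2c65 showed the largest gap. It had 5.81, 8.28 and 9.18 (lowest, median, highest) in humanized livers, against 6.98, 9.47 and 10.17 in wild-type livers, a difference of -1.11 ± 0.111 (adjusted p = 8.27e-11) that was negative on all 5 days. Knockout livers under drug stayed between 3.20 and 3.68, and controls averaged 3.56 in humanized and 3.39 in wild-type livers. Cyp2c54 was lower by 0.51 and Cyp2c70, a bile acid hydroxylase, by 0.35, while Cyp2c29 was not called (-0.03, adjusted p = 0.564).

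All 4 Cyp3a genes tested were higher in humanized livers, with a median difference of 0.26. Cyp3a11 had 14.51, 14.58 and 14.71 in humanized livers, against 14.33, 14.41 and 14.47 in wild-type livers. No humanized animal overlapped a wild-type animal, yet the difference was only 0.16 ± 0.016 (adjusted p = 5.04e-11), on a bright probe set. Cyp3a25 was higher by 0.36, Cyp3a44 by 0.46 and Cyp3a13 by 0.13, and the same 4 genes were higher in untreated humanized livers. Cyp3a genes are near-identical in part, so their signals may be shared. Of 17 other P450s of families 1 to 3, 2 were higher and 7 lower, among them Cyp2u1 at -0.62, Cyp2a12 at -0.46 and Cyp1a2, which oxidises caffeine, at -0.18.

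Other oxidising and reducing enzymes were higher in 18 of 28 genes tested and lower in 3 (median 0.11). Untreated livers gave nearly the same, with 17 higher and 2 lower (median 0.125), beside 10.1% and 14.5% of all genes. Cbr3, a carbonyl reductase, had 6.51, 7.76 and 8.93 in humanized livers, against 5.29, 6.25 and 7.18 in wild-type livers, and was higher by 1.64 ± 0.108 (adjusted p = 2.39e-16). The ranges overlapped across days, but within each day they did not. In controls it was not called (0.14, adjusted p = 0.24). Nqo1, a quinone reductase, was higher by 0.65, Aldh3a2, which clears fatty aldehydes, by 0.49, and Ces1e, an esterase, by 0.39. Of 10 genes of the NRF2 oxidative stress response, which includes Nqo1, 4 were higher and 0 lower, with Gsr, glutathione reductase, at 0.27. Without drug 4 of these genes were higher and 1 lower.

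Among 19 glutathione transferases, 9 were higher and 4 lower (median 0.14), beside 12.6% and 12.4% of all genes. Without drug 11 were higher and 1 lower (median 0.18), beside 10.1% and 14.5% of all genes. Gstm3 had 12.94, 13.46 and 13.67 in humanized livers, against 12.22, 12.81 and 13.22 in wild-type livers, a difference of 0.60 ± 0.0585 (adjusted p = 3.92e-11). Untreated livers were further apart for Gstm3, at 10.77 in humanized and 9.80 in wild-type controls, and the treated minus untreated difference was -0.37 (adjusted p = 0.0267). This holds for the bright probe set used here, where RMA levels may compress. A second, dimmer Gstm3 probe set (mean 10.06) gave a treated difference of 1.25 ± 0.12 (SE). Its gap in controls was not fitted, so the narrowing under drug was not tested on that probe set. Gsta2 was higher by 0.79 and Gstm2 by 0.60; mu-class members are alike in sequence and may share signal. Of 12 glucuronidation genes, 4 were higher and 3 lower under drug, beside 12.6% and 12.4% of all genes. Ugdh, which makes the UDP-glucuronic acid they use, stood at 0.41 and Ugt2b38 at -0.79.

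The sulfotransferases and sulfate donor genes went both ways, with 2 of 11 higher and 5 lower, beside 12.6% and 12.4% of all genes. Sult2a2, a hydroxysteroid sulfotransferase, lay between 2.90 and 3.39 on all 24 wild-type arrays, and between 2.97 and 3.29 on the 5 humanized arrays of day 1. In humanized livers it then stood at 4.78, 5.18, 6.61, 3.77 and 3.15 on day 14, at 5.08, 6.38, 6.68, 4.95 and 6.88 on day 28, and at 7.90, 7.20, 8.35 and 7.34 on day 91. Every humanized animal of days 28 and 91 lay above every wild-type animal. The difference was 0.07 on day 1 and 4.51 on day 91, a change of 4.44 (adjusted p = 1.93e-06) that stayed under the threshold with any 1 animal left out. Treated knockout livers stayed between 2.77 and 3.34, and controls averaged 3.03 in humanized and 3.01 in wild-type livers. Levels near 3 lie close to the floor of the scale, where RMA values do not show whether a transcript is present.

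Sult1e1 and Sult3a1 had the reverse order. Sult1e1, the estrogen sulfotransferase, had 3.24, 3.66 and 4.30 in humanized livers, against 3.48, 4.69 and 7.16 in wild-type livers, and was lower by 1.13 ± 0.187 (adjusted p = 7.84e-06). On day 91 it stood at 3.49, 3.73, 3.70 and 4.04 in humanized livers, against 4.35, 5.64, 5.04, 6.07 and 7.16 in wild-type livers, without overlap but with a wide spread in wild type. Sult3a1, which sulfates amines, was lower by 0.81 ± 0.266 (adjusted p = 0.0203), with means of 6.06 ± 1.18 in humanized (SD, n = 4) and 8.21 ± 0.95 in wild-type livers (SD, n = 5) on day 91. Papss2, which makes the sulfate donor, was higher by 0.41.

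Abcc4, an efflux pump that exports conjugates and nucleotides into blood, was the transporter with the largest difference. On day 1 its levels were 7.44, 7.58, 7.84, 7.97 and 8.32 in humanized livers, against 5.58, 5.52, 5.55, 5.58 and 5.88 in wild-type livers. On day 91 they were 10.22, 9.19, 9.21 and 9.93 in humanized livers, against 8.29, 8.70, 8.26, 8.08 and 8.51 in wild-type livers. The groups did not overlap on any day, and the difference over all days was 2.05 ± 0.106 (4.15-fold, adjusted p = 2.65e-20). Knockout livers under drug ranged from 5.44 to 6.32. Controls averaged 6.17 in humanized and 5.25 in wild-type livers, and the gap under drug exceeded theirs by 1.14 ± 0.13 (adjusted p = 9.71e-11).

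In all, 6 of 11 efflux transporters tested were higher and 1 lower (median 0.13), beside 12.6% and 12.4% of all genes. Abcb1a, the drug pump P-glycoprotein, was higher by 0.55, Abcc3, which exports glucuronides into blood, by 0.40, and Abcg5, a sterol pump, by 0.40. Of 7 uptake transporters, 1 was higher and 3 lower, beside the same shares of all genes. Slco1a4, which takes up organic anions, was higher by 0.37, and Slco1a1, Slc22a7 and Slco1b2 were lower by 0.51, 0.42 and 0.37.

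Prom1, coding for the surface protein CD133 found on progenitor cells and bile duct cells, was higher by 2.59 ± 0.211 (6.02-fold, adjusted p = 2.37e-13). It had 6.29, 9.65 and 10.42 in humanized livers, against 5.22, 6.38 and 8.63 in wild-type livers, and 4.47 to 7.91 in knockout livers. On day 28 it stood at 10.13, 10.37, 10.13, 9.94 and 9.72 in humanized livers, against 7.82, 6.84, 5.99, 8.63 and 6.54 in wild-type livers. Controls did not differ at the threshold, at 5.65 in humanized and 5.67 in wild-type livers (adjusted p = 0.91). Over 6 bile duct markers on the arrays, the mean level ranged from 4.56 to 5.15 in humanized livers, against 4.63 to 5.22 in wild-type livers; of the 4 tested, 0 were higher and 1 lower. Of the 7 progenitor and oncofetal genes tested, Prom1 was the 1 that rose, Sox9 fell by 0.27, and Afp was not called (0.19, adjusted p = 0.112). In whole liver, a change in the number of cells of a type and a change in RNA per cell cannot be told apart.

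Meig1, a gene named for its expression in meiosis, was higher by 1.37 ± 0.109 (adjusted p = 1.27e-13), with 5.17, 6.90 and 7.76 in humanized livers, against 4.81, 5.41 and 6.28 in wild-type livers. Serpinb1a, an inhibitor of neutrophil proteases, had 6.97, 9.29 and 10.92 in humanized livers, against 4.84, 7.03 and 9.77 in wild-type livers, and was higher by 1.99 ± 0.116 (adjusted p = 3.41e-18). A gap was present in controls too, at 7.90 in humanized and 6.32 in wild-type livers.

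**Figure D2:**
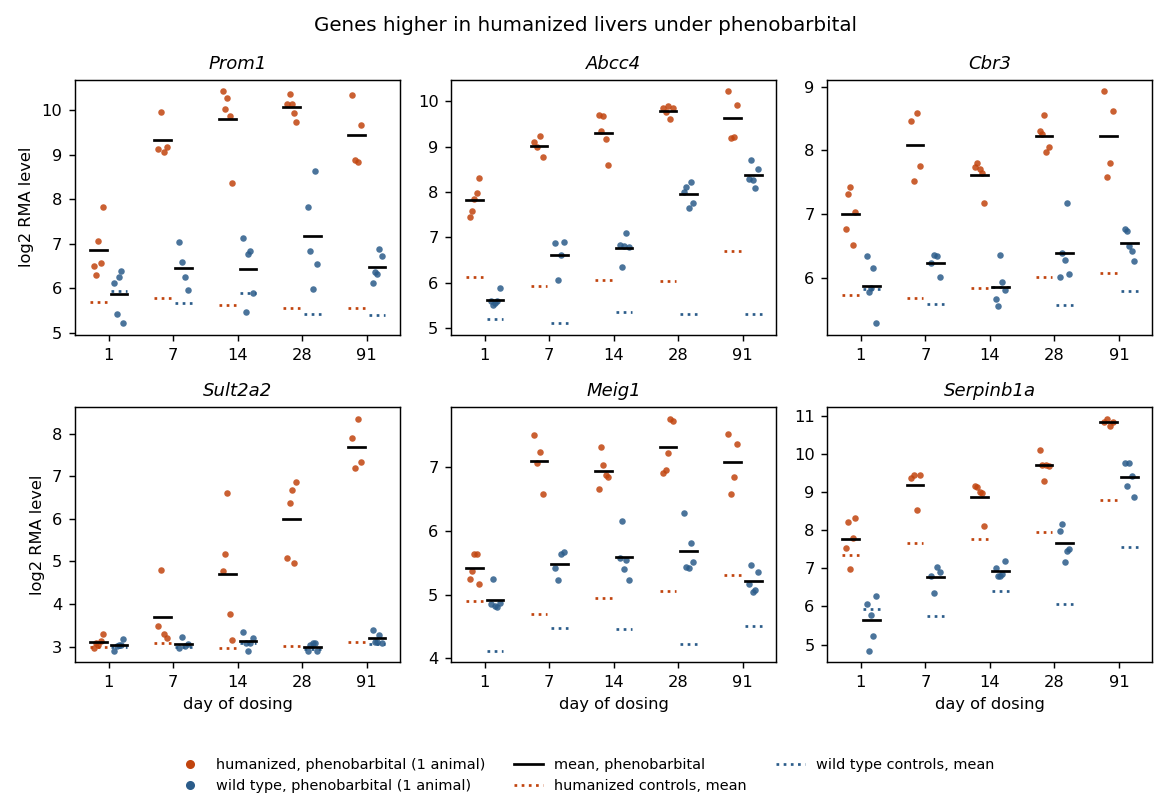
Log2 RMA level (y axis) against day of dosing (x axis) for 6 genes higher in humanized livers; points are treated animals, humanized left of wild type, black bars treated means, dotted bars control means. Abcc4 and Serpinb1a are apart on every day, Prom1 separates from day 7 on, and Sult2a2 leaves its starting level in humanized livers alone.

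Of 25 genes of PPAR alpha and fatty acid oxidation, 13 were higher in humanized livers, 1 was lower and 11 were not called (median 0.15). On days 1, 7, 14, 28 and 91 taken alone, 7, 6, 8, 7 and 0 were higher. Of all genes, 2.55%, 1.24%, 3.95%, 1.74% and 2.19% were higher on these days, so 0 on day 91 is near the share of all genes. The list median was 0.01 on day 91. In controls 11 were higher and 0 lower, beside 10.1% and 14.5% of all genes. Cyp4a14, a fatty acid omega-hydroxylase and standard PPAR alpha target, had 7.78, 10.07 and 10.95 in humanized livers, against 4.46, 5.94 and 9.53 in wild-type livers. Its difference of 3.45 ± 0.301 (10.9-fold, adjusted p = 1.77e-12) was the largest among genes higher in humanized livers. Knockout livers under drug averaged 10.72 and controls 10.37 in humanized and 7.82 in wild-type livers, so wild-type livers under drug had the lowest mean of these groups. The treated minus untreated difference was 0.98 ± 0.45 and did not pass the test (adjusted p = 0.30).

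Acot1, a fatty acyl-CoA thioesterase, was higher by 1.20 ± 0.103 and Vnn1, a pantetheinase, by 1.08 ± 0.11. On day 91 wild-type animals split: Cyp4a14 stood at 9.83, 10.51, 10.95 and 10.32 in humanized livers, against 9.53, 9.10 and 9.46 in wild-type animals 2021, 2022 and 2023, and 5.21 and 7.00 in animals 2024 and 2025. Vnn1 split the same wild-type animals, with 10.76, 11.70, 11.43 and 11.22 in humanized livers, against 11.32, 11.26 and 11.24 in animals 2021 to 2023, and 10.05 and 10.37 in animals 2024 and 2025. Acot1 was lowest in animals 2024 and 2025 too, at 7.35 and 7.70.

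Of 25 lipogenesis and lipid droplet genes, 8 were higher, 0 lower and 17 not called (median 0.15, lowest -0.32), led by Fitm1, which helps form droplets, at 0.74 and Elovl6, a fatty acid elongase, at 0.69. A second bright Elovl6 probe set (mean 10.11) gave 0.61. The dimmer one of highest variance (mean 6.53) gave -0.40 instead, so its direction depends on the probe set. The median of this list was 0.01 on day 28 and -0.12 on day 91. Without drug 9 of its genes were higher and 0 lower (median 0.15), beside 10.1% and 14.5% of all genes. On day 91, 0 of its genes were called, where 2.19% of all genes were higher and 0.887% lower. Of 20 cholesterol synthesis genes, 9 were higher, 0 lower and 11 not called (median 0.22), led by Sqle at 0.65, Fdft1 at 0.50 and Idi1 at 0.44. The median of the cholesterol list was 0.39 on day 1 and -0.07 on day 91, and 15 of the 20 were higher in untreated humanized livers, with a median of 0.32.

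Sex-biased genes split. Of 14 male-biased genes tested, 1 was higher and 9 lower (median -0.10), with Hsd3b5, a steroid-metabolising enzyme, at -0.79 and Elovl3, a fatty acid elongase, at -0.59; untreated livers gave 1 and 9 as well. Of 12 female-biased genes, 4 were higher and 6 lower (median -0.21). Those lower included Cyp2b9, Cyp2b13, Sult1e1 and Sult3a1, described above, and the highest difference in the list was 0.50. Sult2a2, higher by 1.95, was not in this list. The median of all 12 was 0.04 on day 1 and -0.59 on day 91. On day 91 alone, 1 was called higher and 5 lower, beside 2.19% and 0.887% of all genes.

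**Figure D3:**
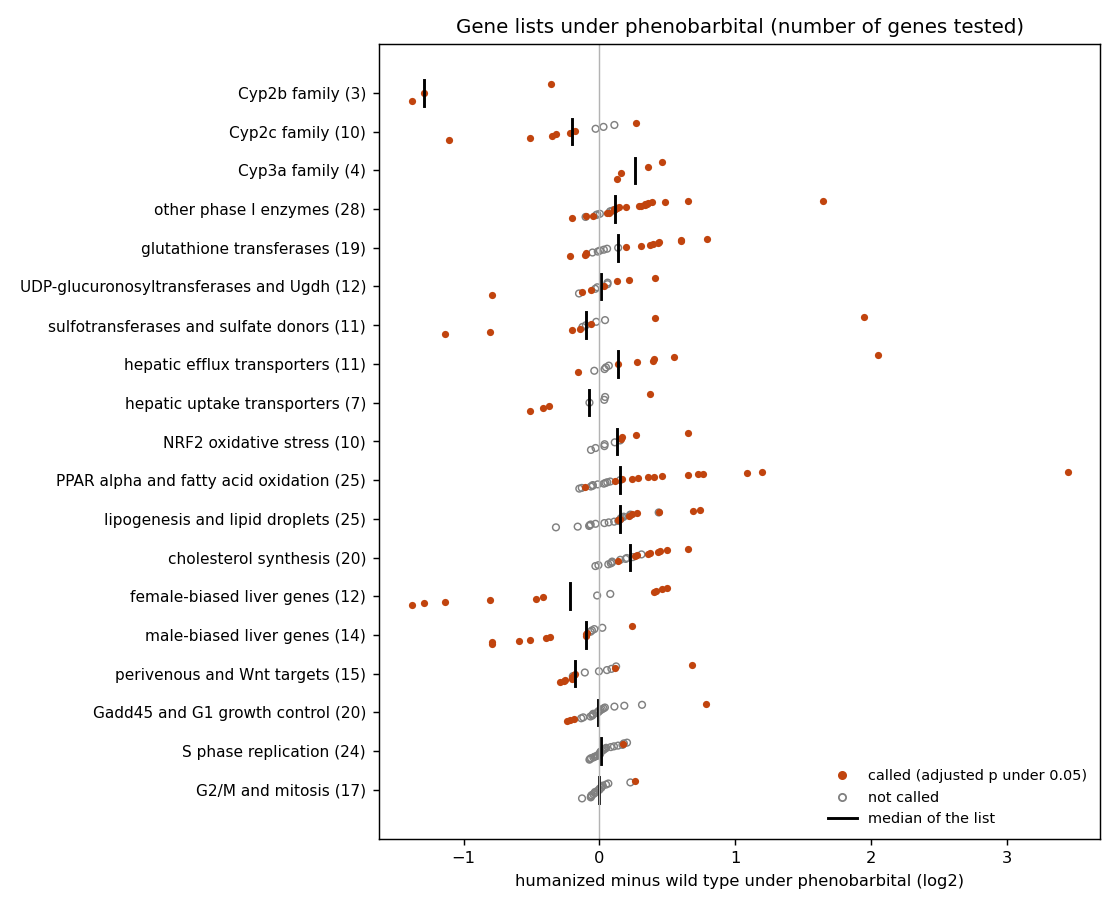
Humanized minus wild-type difference under phenobarbital (log2, x axis) for the tested genes of 19 lists (y axis, number tested in brackets); filled points passed the test, open points did not, black ticks are list medians. Cyp3a points lie right of 0 and Cyp2b points left of 0, while the medians of the S phase and mitosis lists, taken over all days, are 0.02 and -0.00059.

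Growth genes, which phenobarbital raises early in treatment, were read over all days and by day. Over all days, 1 of 24 S phase genes was higher and 0 lower (median 0.02), and 1 of 17 mitosis genes was higher and 0 lower (median -0.00059). The S phase medians on days 1, 7, 14, 28 and 91 were -0.16, -0.13, 0.20, 0.10 and 0.09, and those of mitosis genes were -0.05, -0.20, 0.06, 0.16 and 0.03. On day 1 alone, 1 S phase gene was called lower, where 4.63% of all genes were lower. Mcm5, a subunit of the replication helicase, had 6.13, 6.97 and 7.77 in humanized livers, against 6.04, 6.78 and 8.75 in wild-type livers (difference -0.02, adjusted p = 0.937). Its differences on days 1, 7, 14, 28 and 91 were -0.74, -0.26, 0.57, 0.17 and 0.13, and the change between day 1 and day 91 was not called (0.87, adjusted p = 0.22). Mki67, a marker of cycling cells, had 4.65, 5.07 and 5.86 in humanized livers, against 4.50, 4.91 and 6.99 in wild-type livers (difference -0.06, adjusted p = 0.771). Wild-type animal 2004 on day 1 had the highest value for both, and its acinar marker mean was among the 5 high ones. Without those 5 arrays the change between day 1 and day 91 was 0.88 for Mcm5, against 0.87 with them. For Mki67 it was 0.06 without them, against 0.27 with them. None of these changes was called, and the part of acinar tissue in the levels was not tested.

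Of 20 genes of G1 growth control, 1 was higher and 3 lower over all days. On day 1 alone, 0 were higher and 4 lower, where 4.63% of all genes were lower. Myc, a growth-driving transcription factor, was higher by 0.79 ± 0.165 (adjusted p = 0.000277), with a difference of 1.07 in controls. Ccnd1, which drives entry into the cell cycle, was lower by 0.22 (adjusted p = 0.0465), a call lost in 28 of the 47 fits that left out 1 animal. Other Ccnd1 probe sets gave -0.47 and -0.15, so the size of its difference depends on the probe set. On day 1 Ccnd1 stood at 8.06, 8.43, 9.46, 8.06 and 7.79 in humanized livers, against 8.91, 9.01, 8.91, 8.98 and 8.95 in wild-type livers (difference -0.59, adjusted p = 0.0311). Humanized animal 6003, the treated array highest in acinar markers, lay above all wild-type animals and the other 4 below them; the part of these markers in the result was not tested. Gadd45b, a CAR-responsive growth arrest gene, averaged 6.98 ± 0.39 in humanized livers (SD, n = 23) and 6.79 ± 0.34 in wild-type livers (SD, n = 24), which was not called (0.18, adjusted p = 0.181); knockout livers averaged 5.72.

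Meg3, an imprinted non-coding RNA, had higher means on later days in both genotypes. It averaged 7.19 ± 0.11 on day 1 and 9.53 ± 0.44 on day 91 in humanized livers, against 7.00 ± 0.14 and 9.85 ± 0.67 in wild-type livers, and treated knockout livers stayed between 6.80 and 7.38. The genotypes did not differ at the threshold for Meg3 (-0.09 ± 0.107, adjusted p = 0.56) or for Rian, another RNA of that cluster (0.21, adjusted p = 0.318). A p that misses the threshold does not show equal levels.

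**Figure D4:**
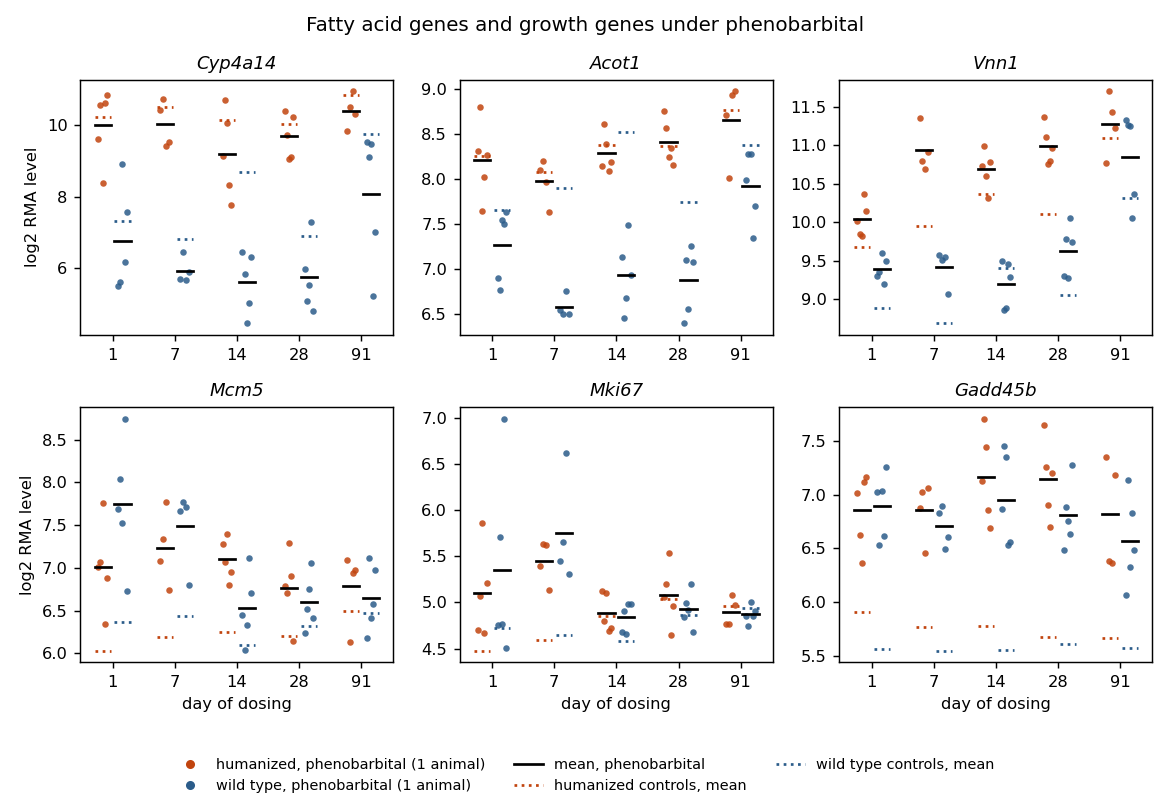
Log2 RMA level (y axis) against day of dosing (x axis) for 3 fatty acid genes and 3 growth genes; points are treated animals, humanized left of wild type, black bars treated means, dotted bars control means. Cyp4a14, Acot1 and Vnn1 are higher in humanized livers, with 3 wild-type animals of day 91 near them for Cyp4a14 and Vnn1, while Mcm5, Mki67 and Gadd45b overlap.

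Other lists gave fewer or mixed calls. Of 15 perivenous and Wnt target genes, 2 were higher and 7 lower (median -0.18): Axin2 fell by 0.25 and Lgr5 by 0.29, while Oat, an amino acid enzyme of the perivenous zone, rose by 0.68 and Glul, glutamine synthetase, by 0.11. Circadian genes split, with 5 of 16 higher and 4 lower over all days. Their calls by day lay mostly on day 1, with 5 higher and 5 lower, beside 2.55% and 4.63% of all genes. Day 7 gave 1 higher and 1 lower, day 14 gave 0 and 1, and days 28 and 91 gave 0 each way. Dbp, a clock output gene, was higher by 1.12, and on day 1 it stood at 9.27, 5.79, 11.30, 7.92 and 9.35 in humanized livers, against 5.97, 7.16, 6.24, 4.82 and 6.06 in wild-type livers. Npas2 and Cry1, of the opposite arm of the clock, fell by 0.70 and 0.53, and the 3 genes had the same signs in controls. All mice were killed in the morning per the labels, and the time for each animal was not given in the sources used here; its part in these values was not tested. Of 12 Kupffer cell genes, 3 were higher and 0 lower, among them C1qb at 0.32, while the mean over the list ranged from 7.59 to 8.34 in humanized livers, against 7.38 to 8.39 in wild-type livers. Of 18 ER stress genes, 1 was higher and 6 lower, and of 23 acute phase genes, 2 were higher and 5 lower, beside 12.6% and 12.4% of all genes.

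Among genes lower in humanized livers outside drug metabolism, several were apart with and without drug. Tmem223, a mitochondrial assembly factor, had 6.84, 7.23 and 7.63 in humanized livers, against 8.35, 8.77 and 8.92 in wild-type livers. Its difference was -1.53 under drug and -1.56 in controls, and knockout livers under drug averaged 8.71, near wild type. Dct, best known from pigment synthesis, had the opposite sign: it was higher by 1.19 under drug and by 1.30 in controls, with knockout livers at 9.24. Gna14, a G protein subunit, was lower by 1.33 under drug and by 0.89 in controls. Moxd1 had the lowest difference after the receptors, -2.33 ± 0.433, but ranged over 3.87, 4.44 and 10.03 in humanized livers, against 3.92, 7.28 and 10.33 in wild-type livers.

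Taken day by day, the genotypes differed in 907 genes on day 1 (7.19%), 322 on day 7 (2.55%), 737 on day 14 (5.84%), 516 on day 28 (4.09%) and 388 on day 91 (3.07%). On day 1, 322 were higher (2.55%) and 585 lower (4.63%) in humanized livers. Day 7 gave 156 higher (1.24%) and 166 lower (1.32%), day 14 gave 499 (3.95%) and 238 (1.89%), day 28 gave 220 (1.74%) and 296 (2.35%), and day 91 gave 276 (2.19%) and 112 (0.887%). After quantile normalization the splits were nearer to even, with 417 higher and 370 lower genes on day 14. For day 28 it gave 312 higher and 291 lower, and for day 91 it gave 170 higher and 161 lower. The counts moved with single animals too: without wild-type animal 2003 day 1 gave 448, and without humanized animal 6021 day 91 gave 169. A change of the difference between day 1 and day 91 was called for 107 genes (0.848%), positive for 78 (0.618%) and negative for 29 (0.23%), and for 12 by the F test over all days (0.0951%). Quantile normalization left 19 changes, 10 positive and 9 negative, while 234 were called without the 5 arrays high in acinar markers. Beside Cyp2b13 and Sult2a2, Osgin1, an oxidative stress-induced growth inhibitor, crossed over: on day 1 it stood at 9.61, 10.02, 8.89, 9.79 and 9.44 in humanized livers, against 10.60, 9.92, 10.17, 10.27 and 10.26 in wild-type livers. On day 91 it stood at 9.93, 9.90, 10.11 and 10.46 in humanized livers, against 9.27, 8.63, 9.16, 9.31 and 8.84 in wild-type livers (change 1.75, adjusted p = 4.05e-05). Avpr1a, the vasopressin receptor of hepatocytes, was lower by 1.29 on day 1 and by 0.32 on day 91 (change 0.97, adjusted p = 0.0144); after quantile normalization this change was 0.88 and not called (adjusted p = 0.0565). The count of 107 ranged from 21 to 420 when 1 animal was left out, while Cyp2b13, Sult2a2, Osgin1 and Avpr1a passed in each of those fits.

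Without drug, the genotypes differed in 3111 genes (24.6%), of which 1281 were higher (10.1%) and 1830 lower (14.5%) in humanized livers. Of the 63 genes higher by at least 1.5-fold under drug, 55 were also called higher in controls, and of the 40 lower, 27 were also called lower in controls. The treated minus untreated difference was called for 245 genes (1.94%), 147 positive (1.16%) and 98 negative (0.776%), of which 9 (0.0713%) and 15 (0.119%) were at least 1.5-fold. After quantile normalization 121 were positive and 127 negative. Without the 5 treated and 6 control arrays high in acinar markers, 192 genes passed this test, 120 positive and 72 negative, and 2150 genes differed in controls. The most positive were Prom1 (2.63), Sult2a2 (1.94), Cbr3 (1.51), 1810053B23Rik (1.43) and Abcc4 (1.14), and the most negative were Cyp2b10 (-1.79), Cyp2c55 (-1.55), 1700067K01Rik (-1.54), Cyp2b13 (-1.33), Cyp2c65 (-1.29) and Cyp2b9 (-1.21). 1700067K01Rik, a gene without a described role here, had 5.21, 5.67 and 6.27 in treated humanized livers, against 6.46, 7.41 and 7.83 in treated wild-type livers, while controls averaged 5.07 in humanized and 5.18 in wild-type livers.

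**Figure D5:**
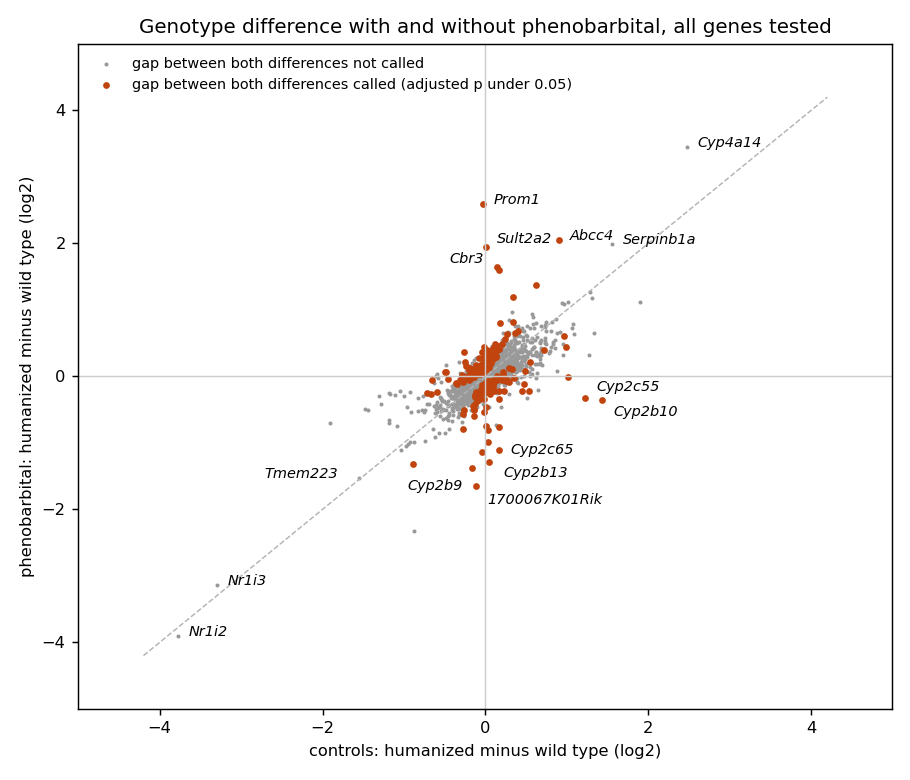
Humanized minus wild-type difference under phenobarbital (log2, y axis) against the same difference in control livers (log2, x axis), 1 point per tested gene; coloured points passed the test of the gap between both differences, and the dashed line marks equal differences. Prom1, Sult2a2 and Cbr3 lie high near the vertical line, Cyp2b10 and Cyp2c55 lie right of it just below 0, and Nr1i2, Nr1i3 and Tmem223 lie near the dashed line.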

How the data were processed

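RNA of mouse liver was measured on 167 Affymetrix arrays. The authors deposited log2 values made with RMA, per the submitters' processing notes; background correction and normalization beyond that name, and the version, were not given in the sources used here. Expression was taken as deposited, for 45101 probe sets. Genes were named from the platform annotation: 34945 probe sets had 1 symbol, 932 several, 9211 none, and 64 controls were left out. The probe set with the highest mean over all arrays stood for each of 18193 genes, and 12622 with at least 3 arrays above their own median were tested. Depth does not apply to arrays; the number of animals limits precision, and p-values measure the spread between them. Linear models used limma (version 3.58.1, under R 4.3.3), with moderated two-sided tests and Benjamini-Hochberg adjustment: genotype with day as a block (41 residual degrees of freedom), 10 group means for days, and 20 for treated minus untreated; calls had adjusted p under 0.05. The fits were tested on simulated data. Genes named were the core and listed genes, the largest differences each way, the largest by list, day change and treatment gap, and neighbours of the receptors; Osgin1's animals and day-91 splits were described after their values were seen. Members and lists were chosen with earlier results of these data known. Promoters came from RefSeq (GRCm38.p6). The labels give no batch. Alternatives were filters, normalization, variance model, probe set choice, day terms, and leaving out animals or days.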

Additional observations from a re-analysis of the deposited data

Results flagged for a closer look

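In a screen of 12 genes in 10 treated groups each, 8 of 120 groups held an animal far from the others of its group; chance flags about 1 in 20 groups. In humanized livers these were Cyp2c65 at 8.231 in animal 6011 on day 14, below the other animals at 8.738 to 8.879, and Mcm5 at 6.131 in animal 6022 on day 91, below 6.943 to 7.089. In wild-type livers, animal 2019 on day 28 was high for Cyp2b10 at 13.18 (others 12.88 to 12.96) and for Gstm3 at 13.22 (others 12.76 to 12.87). On day 1, Cyp2b9 stood at 5.561 in animal 2003 (others 4.575 to 4.847) and Abcc4 at 5.88 in animal 2005 (others 5.516 to 5.585). Cyp3a11 stood at 14.33 in animal 2014 on day 14 (others 14.43 to 14.45), and Mcm5 at 6.799 in animal 2009 on day 7 (others 7.67 to 7.776).

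The humanized minus wild-type difference changed between day 1 and day 91 for Cyp2b10, by 0.6915 (adjusted p = 0.0216), and for Cyp2c55, by 0.7925 (adjusted p = 0.0459, limma). The same difference was not equal with and without drug for 6 of the screened genes: treated minus untreated, it was 1.144 for Abcc4, -1.786 for Cyp2b10, -1.213 for Cyp2b9, -1.55 for Cyp2c55, -1.287 for Cyp2c65 and -0.3727 for Gstm3, with adjusted p between 2.79e-22 and 0.0267.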

How the results depend on the processing

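The count of 3159 genes that differed between treated humanized and wild-type livers lay between 2393 and 3515 under the alternatives and between 3000 and 3216 with 1 animal left out; the count past 1.5-fold lay between 77 and 135, and between 98 and 105. The untreated count ranged from 2863 to 3252 and the treated minus untreated count from 215 to 291 with 1 animal left out. Counts by day were less stable. With 1 animal left out they ranged from 448 to 1328 on day 1, 175 to 350 on day 7, 463 to 792 on day 14, 331 to 558 on day 28 and 169 to 441 on day 91. Those that moved them by over 1.5 times below were wild-type 2001 (555) and 2003 for day 1, humanized 6006 and 6010 (206) for day 7, wild-type 2012 for day 14, humanized 6016 for day 28, and humanized 6021 and 6023 (234) and wild-type 2024 (222) and 2025 (232) for day 91. Fits on the arrays of 1 day alone, which have fewer samples, gave 191, 418 and 190 genes on days 1, 14 and 91.

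The change between day 1 and day 91 (107 genes) ranged from 21 to 420 and the F test (12 genes) from 5 to 27 with 1 animal left out. The change count was 60, 24 and 62 without humanized 6002, 6021 and 6022, and 37, 21, 420, 192, 22, 67 and 51 without wild-type 2001, 2003, 2004, 2022, 2023, 2024 and 2025. The F count was 27 and 20 without wild-type 2024 and 2004, and 5 to 7 without any of 17 other animals. Quantile normalization gave 19 and 6 genes for these tests. Without the 5 arrays high in acinar markers, an alternative chosen after seeing the data, day 91 gave 258 genes and the change 234; the cause was not tested. The 26 day changes checked for named genes included core genes that were not called in the first place, such as Cyp2b9, Cyp2c65 and Mcm5. Among those that were called, 7 lost the call after quantile normalization, 3 without those arrays and 1 without the filter on dim genes.

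Probe set choice turned the sign of some named genes. With the mean of all probe sets, Txnrd1 stood at -0.13, Arid4b at -0.20 and Tomm40l at -0.48. With the probe set of highest variance, Txnrd1 stood at -0.35, Uros at 0.048, Insr at -0.0083, Elovl6 at -0.40, Car3 at -0.029, Arid4b at -0.58, Tomm40l at -1.78 and Cox17 at -0.041. No paired analysis was possible because each animal has a number of its own, so groups share none. Dim probe sets near the floor and bright ones near the top of the scale limit how far small differences can be read.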

Other observations

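Haem synthesis, which supplies the cofactor of P450 enzymes, held 1 higher and 1 lower of 7 genes tested between treated humanized and treated wild-type livers, where 12.6% of all genes were higher and 12.4% lower. Alas1, its first and rate-limiting enzyme, had 9.57, 11.14 and 12.32 (lowest, median, highest) in treated humanized livers, against 9.41, 10.63 and 12.45 in treated wild-type livers (difference 0.33, adjusted p = 0.247, limma). In controls Alas1 averaged 10.97 in humanized and 9.67 in wild-type livers, a difference of 1.28 (adjusted p = 0.0013). The 2 genes called in this list were Urod at 0.088 and Uros at -0.14. Their second probe sets went the other way, at -0.065 for Urod and 0.048 for Uros. Alas2, the erythroid form, was counted with the erythroid markers and not in this list, and was lower by 0.57 under drug (adjusted p = 8.31e-14, limma).

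Of 15 bile acid genes, 2 were higher and 5 lower under drug, beside the same 12.6% and 12.4% of all genes. Cyp7a1, the first enzyme of bile acid synthesis, was not called (0.22, adjusted p = 0.421), while Cyp7b1 and Cyp39a1, of the side pathways, were lower by 0.39 and 0.46. Nr0b2, the repressor SHP, was lower by 0.36. Among nuclear receptors and their partners, Pparg was higher by 0.55 and Esr1 by 0.37. Lyve1, a marker of sinusoidal endothelium, was lower by 0.50 and Lrat, a stellate cell gene, by 0.44. Each was the 1 gene of its list called lower. Of 9 endothelial genes 1 was higher and 7 were not called, and of 12 stellate genes 1 was higher and 10 were not called. Both list medians were -0.06.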
